A study of Sus scrofa with 48 samples.

Results

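Gene expression was measured in the fat of pigs homozygous for the D298 form of MC4R, after 3 days without feed and after free feeding. The samples were chosen by their labels: 6 arrays of D298 fat from fasted gilts and 6 of D298 fat from fed gilts, 12 of the 48 arrays of the study. All 23999 probe sets of the Affymetrix pig array other than its controls were tested, from 24123 in all. The remaining arrays hold the liver of these gilts and the fat and liver of gilts homozygous for the N298 form. All gilts were Yorkshire, 6 months old and of high feed efficiency, bred through selection on low residual feed intake, so this breeding is shared by fed and fasted animals of both genotypes. D298 and N298 differ in the amino acid that the substitution D298N replaces in the receptor. The labels say fat and give no depot. The question of the comparison is how this fat responds to fasting. The 12 arrays of N298 fat and the 12 arrays of D298 liver are used only where a difference from them is tested.

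In pigs the fat tissue, more than the liver, builds fatty acids from glucose. Glucose carbon passes through pyruvate and the mitochondrial citrate carrier to cytosolic acetyl-CoA, which acetyl-CoA carboxylase and fatty acid synthase turn into palmitate. In fasting insulin falls, this route is turned down and stored triglyceride is split into fatty acids and glycerol for other organs. MC4R is a receptor of the brain that curbs appetite, and its probe set in fat was close to background, with signals of 4.54 to 41.8 in fed and 1.57 to 16.3 in fasted gilts.

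Median signals per array were 160 to 192, and within a group each array correlated with the rest at a median of 0.922 to 0.935. With 6 arrays a group, their number limits the precision. The tissue carried its labelled identity: ADIPOQ, the adipocyte hormone adiponectin, had signals of 21044 to 30764 in the 12 arrays against a median of 42.2 in D298 liver. Fed replicate 4 and fasted replicate 5 stood apart by hepatocyte transcripts. Their albumin (ALB) signals were 7463 and 8392, against 90.3 to 341 in the other 10 arrays and a median of 40700 in liver, and all 10 measured hepatocyte markers were higher in both than in any of the other 10. Skeletal muscle transcripts varied more: the summed signal of 9 markers was 474 to 35858 in fed and 295 to 114597 in fasted gilts, with fed replicate 1 the highest fed array and fasted replicates 4, 5 and 6 above all others. All 9 muscle markers had a positive difference and none passed the test. Over 16 array measures, which include the 3 prime to 5 prime ratios of control transcripts and the mean of each marker list, no exact permutation p was below 0.0693 after adjustment. This lowest value was shared by the array median signal and the endothelial, lymphocyte, keratinocyte and neutrophil marker means. The array median signal had a mean of 168 in fed and 180 in fasted arrays.

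Fed replicate 1 lay between the fed and the fasted arrays. On a scale where 0 is the mean of the other fed arrays and 1 that of the other fasted arrays, over the probe sets called in a fit without the array placed, this array stood at 0.614. The other 5 fed arrays stood between -0.237 and 0.141, and the 6 fasted arrays between 0.714 and 1.01. The liver of the gilt with the same number stood at 0.142 on the liver's own scale, within the range of -0.009 to 0.313 of the 6 fed livers. Counts are also given without this array where it changes their reading.

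**Figure D1:**
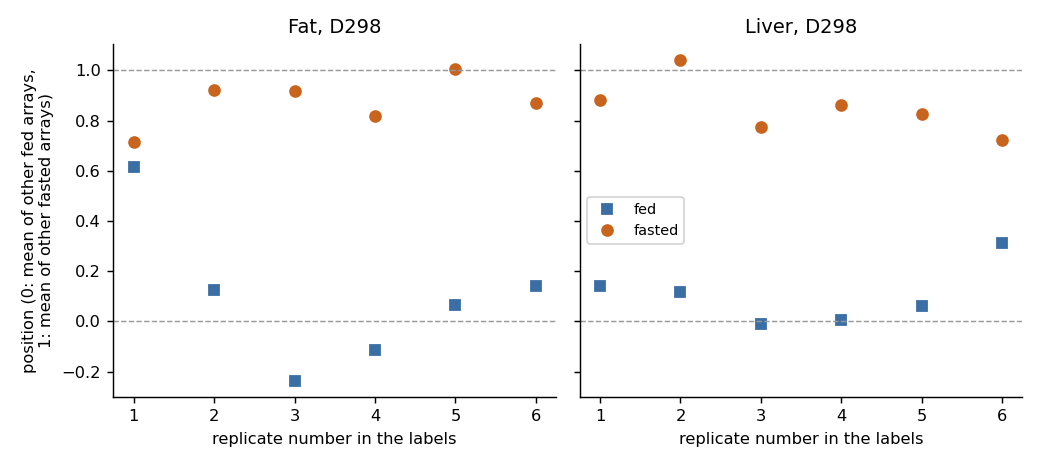
Position of each D298 array between fed and fasted, for fat (left) and liver (right). The vertical axis runs from 0, the mean of the other fed arrays, to 1, the mean of the other fasted arrays, and the horizontal axis is the replicate number of the labels. Fed fat replicate 1 stands at 0.614, apart from the other 5 fed fat arrays.

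Fasting lowered the genes of fat synthesis, glucose use and mitochondrial respiration in D298 fat and raised genes of complement. Other lists, steroid metabolism and lipolysis among them, held changes in both directions. Of 23999 probe sets 3034 were called at an adjusted p under 0.05 (12.6%), 1576 of them higher (6.57%) and 1458 lower (6.08%) in fasted gilts. This split depended on scaling, with 1338 higher and 1630 lower under quantile normalization and 828 higher and 1838 lower with each array centred on its median. Large changes leaned downward: 354 of the called probe sets were at least 2-fold lower and 187 at least 2-fold higher. Among the 6765 genes with 1 symbol, each taken at its brightest probe set, 1297 were called (19.2%), of which 505 were higher (7.46%) and 792 lower (11.7%). The median log2 difference over all these genes was 0.018. These shares and this median are the background for the lists below. In 480 genes (7.10%) no fasted array overlapped the fed arrays. Without fed replicate 1 the number of called probe sets was 3405, and without the 2 arrays with hepatocyte transcripts, an alternative added after the data were seen, it was 1655. Lower counts of list members in that alternative stand beside this lower total. Among the genes that moved in the comparisons described here, ADRB1, AHCY, ANGPTL4, ARPC1B, ATP6V0D1, ATP6V1A, BHLHE40, C2, C7, CD3D, CD59, CD8A, CDKN1B, FABP5, GATA3, GK, GPD1, GPRC5A, HILPDA, IGFBP6, LPL, MID1IP1, NCOA1, NID2, ORM1, OXSM, PDIA4, PDIA6, PIK3IP1, PKM, PPARG, PYGL, QSOX1, RPL12, SAA2, SCD5, SERPING1, SLC25A5 and SREBF1 did not pass in that alternative, with adjusted p from 0.0576 to 0.215. Their log2 differences kept their sign there and were 0.687 to 1.13 times those with all arrays, in a fit with 2 fewer arrays. ACSL5, CD3D, CD8A, IGFBP6, NCOA1 and PLOD1 did not pass without fed replicate 1. Genes with more than 1 probe set are given at the brightest one, and at least 1 other probe set had the opposite sign for ACACA, BECN1, BHLHE40, CILP, COL5A1, COL5A3, DGAT1, GPX4, NCOR1, NDUFS3, ORM1, PNPLA2, QSOX1, RPL12, SAA2, SLA-DMA, SREBF2 and VDAC2. In bulk tissue, fewer cells of a type and less RNA per cell cannot be told apart.

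**Figure D2:**
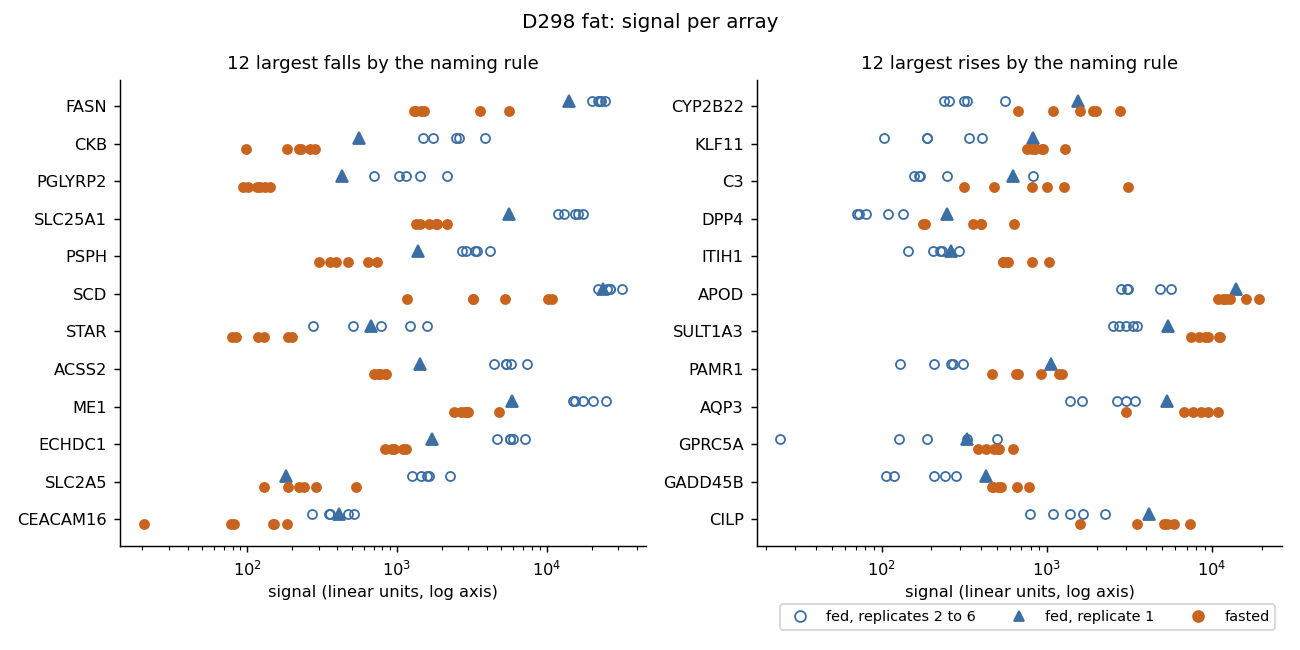
Signal of each of the 12 D298 fat arrays (log axis, linear units) for the 12 genes with the largest falls (left) and the 12 with the largest rises (right) by the naming rule. Open circles and the triangle are fed arrays, filled circles fasted arrays, and the triangle is fed replicate 1, which lies nearest to the fasted arrays in most rows.

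The deepest fall was in FASN, fatty acid synthase, which makes palmitate. Its signals in fed gilts were 14224 at the lowest, 22339 at the median and 24665 at the highest, and in fasted gilts 1296, 1481 and 5638. The groups did not overlap, and the lowest fed array was replicate 1. The log2 difference was -3.34 (SE 0.27, adjusted p = 1.72e-07), and the other probe sets of the gene differed by -1.84, -4.58 and -4.29. SLC25A1, the carrier that brings citrate out of the mitochondrion for acetyl-CoA synthesis, went from 5623, 14198 and 17448 in fed to 1334, 1735 and 2178 in fasted gilts, again without overlap. Its log2 difference was -2.89 (SE 0.19, adjusted p = 1.02e-08). ACSS2, which makes acetyl-CoA from acetate, fell from a fed median of 5372 to fasted signals of 701 to 841. All 6 fasted arrays lay close together there, whereas the fed arrays spread from 1426 to 7416. ACACA, acetyl-CoA carboxylase, which makes the malonyl-CoA that FASN extends, differed by -2.29 (SE 0.31, adjusted p = 5.36e-05) at the brighter of its probe sets, but by 0.063 at the other. With OXSM, a mitochondrial synthase that fell by 0.49, 5 of the 6 measured genes of fatty acid synthesis were lower and 0 higher, with a median of -2.40 against 0.018 over all genes.

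The enzymes that finish and supply the new fatty acids followed. SCD, the desaturase that makes oleate from stearate, had signals of 22173, 25973 and 31769 in fed and 1162, 4272 and 10948 in fasted gilts. The fed arrays lay within a narrow band, replicate 1 included (23846), and the fasted arrays were scattered far below it. HSD17B12, which acts in the elongation of fatty acids, fell by 1.72 and ELOVL6, the elongase of palmitate, fell by 1.02 on the log2 scale. SCD5, another desaturase, rose by 0.91 (SE 0.28). Of 8 measured genes of desaturation and elongation 3 were lower and 1 higher. For the NADPH that synthesis consumes, ME1, the cytosolic malic enzyme, went from 5898, 16563 and 25043 to 2400, 2898 and 4795 without overlap. PGD of the pentose phosphate pathway fell by 1.62, and TALDO1 and TKT, its sugar-rearranging enzymes, fell by 1.23 and 1.20. Of 7 measured NADPH genes 4 were lower and 0 higher.

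Among the regulators of lipid synthesis, INSIG1, which holds the SREBP precursors in the endoplasmic reticulum and is itself an SREBP target, fell from a fed range of 3206 to 5786 to a fasted range of 1521 to 1958 (log2 -1.29, SE 0.13, adjusted p = 3.17e-06). SREBF1, which encodes the SREBP factor of fatty acid synthesis, was dim, with 123 to 261 in fed and 23 to 114 in fasted gilts. Its log2 difference was -1.21 (adjusted p = 0.0304), and -1.19 without the 2 arrays with hepatocyte transcripts, where it did not pass (0.101). MID1IP1, a partner of acetyl-CoA carboxylase, fell by 0.72 on the log2 scale, and differed by -0.67 without these arrays, where it did not pass (0.106). The other 5 of the 8 measured regulators, SREBF2 and SCAP among them, did not pass. Sterol synthesis was lower in 8 of 11 measured genes and higher in 0, with a median of -0.88. Its steepest falls were in FDPS, which makes farnesyl diphosphate (-1.96), ACAT2, which makes acetoacetyl-CoA (-1.91), and SC5D, a late desaturase of the sterol ring (-1.78). CYP51, the sterol demethylase, fell by 1.18. Without the 2 arrays with hepatocyte transcripts 5 of the 11 passed.

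In triglyceride assembly 4 of 13 measured genes were lower and 1 higher. DGAT2, which adds the last fatty acid, went from 11829, 16452 and 19846 in fed to 3128, 3989 and 4841 in fasted gilts. The gap between the groups was wider than the range of the fasted arrays. AGPAT1, which adds the middle fatty acid, fell by 1.45, DGAT1 by 0.74, and GPD1, which makes glycerol 3-phosphate, fell by 0.46. PLPP1, a lipid phosphate phosphatase, rose by 0.58. The brightest probe set of DGAT1 fell while another differed by 0.28.

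Glucose entry and its route to acetyl-CoA were lower. SLC2A5, the fructose transporter, had fed signals of 183, 1514 and 2263 and fasted signals of 130, 232 and 537. The groups overlapped through fed replicate 1, the lowest fed array. SLC2A1, the basal glucose transporter, fell without overlap from 535 to 792 in fed to 153 to 367 in fasted gilts. SLC2A4, the insulin-responsive transporter, which was chosen after its values were seen, differed by -1.47 (SE 0.28, adjusted p = 0.00128). HK1, which traps glucose as its phosphate, fell by 1.11, ALDOC by 1.50 and ENO1 by 1.06. In glycolysis and hexose uptake 8 of 16 measured genes were lower and 2 higher, PFKP (0.55) and PKM (0.28). The muscle forms PFKM and ENO3, chosen after their values were seen, differed by 0.92 and 1.13 and did not pass. Muscle markers were highest in 3 fasted arrays. With the mean of these markers as a covariate, an alternative added after the data were seen, PFKP differed by 0.55 and passed, PKM differed by 0.27 and did not (adjusted p = 0.0576), and PFKM and ENO3 differed by 0.65 and 0.41 and did not pass.

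At the entry of pyruvate into the mitochondrion 7 of 12 measured genes were lower and 0 higher. PDHB, a subunit of pyruvate dehydrogenase, went from 4396, 10335 and 14623 to 2487, 2738 and 3000. The fasted arrays lay within a narrow band under every fed array. DLAT and DLD, the other catalytic parts of the complex, fell by 1.26 and 0.71, and MPC2, a subunit of the mitochondrial pyruvate carrier, fell by 1.27. PDK4, the kinase that switches the complex off, differed by 0.24 (SE 0.21) and did not pass. GPT, which makes alanine from pyruvate, fell from 787 to 1338 in fed to 202 to 424 in fasted gilts. PCK1, the cytosolic carboxykinase that in fat feeds glycerol synthesis, was at 468, 848 and 6158 in fed and 2287, 3651 and 5827 in fasted gilts. The fed arrays spanned the whole fasted range, with fed replicates 1 and 6 at 4335 and 6158. The difference of 1.51 (SE 0.52) did not pass (adjusted p = 0.0622). Of the 11 measured genes of its list, glyceroneogenesis and transamination, 0 were higher with all arrays and 1 without fed replicate 1. GYS1, glycogen synthase, fell by 0.69 and PYGL, a glycogen phosphorylase, fell by 0.37.

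The mitochondrial genes fell as a broad group with modest sizes. Of 33 measured subunits of complex I, the NADH dehydrogenase that opens the respiratory chain, 31 were lower and 0 higher, with a median of -0.79 and a range of -1.41 to -0.31. NDUFAB1, its acyl carrier subunit, fell from a fed range of 6410 to 12825 to a fasted range of 3264 to 5372. NDUFS3 fell by 1.01, NDUFS7 by 1.41 and NDUFB8 by 0.79. Of 9 measured genes of complexes III and IV 8 were lower and 0 higher. Among them COX5B, COX7A2, UQCR10 and COX6A1 differed by -0.97, -0.97, -0.87 and -0.83. ATP synthase had 11 of 15 lower and 0 higher. Its catalytic beta subunit ATP5B went from 8606, 11657 and 13745 in fed to 4934, 5284 and 6288 in fasted gilts without overlap (log2 -1.11, SE 0.11, adjusted p = 1.36e-06).

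The tricarboxylic acid cycle, which burns acetyl-CoA, was lower in 13 of 19 measured genes and higher in 0. SDHC, a membrane anchor of succinate dehydrogenase, had fed signals of 2852 to 5784 and fasted signals of 1658 to 2006. MDH2, the mitochondrial malate dehydrogenase, fell by 1.29, and MDH1, its cytosolic counterpart, fell by 0.92. Proteins that build and serve the organelle fell too: 32 of 69 measured genes of the mitochondrial ribosome and import were lower and 0 higher, MRPS28 (-1.13) and the import subunit TIMM50 (-0.88) among them. Without the 2 arrays with hepatocyte transcripts this count was 18. VDAC1 and VDAC2, the pores of the outer membrane, fell by 0.87 and 0.73, and the ATP carriers SLC25A6 and SLC25A5 fell by 0.69 and 0.52. These were the 4 called of 12 measured genes of mitochondrial biogenesis and uncoupling (33.3%). The other 8 did not pass, and the median of the list was -0.16. By contrast 0 of 58 measured cytosolic ribosomal proteins were higher and 1 was lower, RPL12 (-0.22), and their median was -0.076.

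Fatty acid oxidation held changes in both directions. Of 26 measured genes 12 were lower and 4 higher. CPT1A, which admits long-chain fatty acids to the mitochondrion, rose from 719, 1002 and 1952 to 1541, 1986 and 2593 (log2 0.89, SE 0.20, adjusted p = 0.004). The highest fed array, replicate 1, lay inside the fasted range. HADHA, a subunit of the trifunctional protein, rose by 0.47, and the acyl-CoA synthetases ACSL4 and ACSL5 rose by 0.49 and 0.53. ACSL1, the main acyl-CoA synthetase of adipocytes, fell from 12092 to 16206 in fed to 4704 to 6447 in fasted gilts. ECI1, an isomerase for unsaturated chains, fell by 1.35, ECHS1, the short-chain hydratase, by 1.04 and ETFA, which passes the electrons on, by 0.81.

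Breakdown of branched-chain and other amino acids, another supply of acetyl-CoA in fat, was lower in 14 of 20 measured genes and higher in 0. BCKDHB, a subunit of the branched-chain ketoacid dehydrogenase, fell from 1471, 3125 and 4170 to 712, 971 and 1191. IVD, which acts on the leucine product, fell by 1.42, PCCA, of propionyl-CoA carboxylase, by 0.94, and BCKDK, the kinase that holds the dehydrogenase in check, by 0.73. Without the 2 arrays with hepatocyte transcripts the count was 8. Serine and one-carbon genes split, with 5 of 12 lower and 2 higher. PSPH, the last step of serine synthesis, went from 1395, 3107 and 4219 to 302, 431 and 734, and PHGDH, the first step, fell by 1.25. SHMT1, which splits serine to glycine, rose by 0.91. CKB, the brain form of creatine kinase, had signals of 561, 2120 and 3887 in fed and 98.2, 225 and 285 in fasted gilts, the second deepest fall of the named genes (log2 -3.17, SE 0.32, adjusted p = 1.96e-06). GAMT, which makes creatine, and AHCY, which clears the by-product of methylation, fell by 0.64 and 0.55, and MAT2A, which makes the methyl donor, rose by 0.55.

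**Figure D3:**
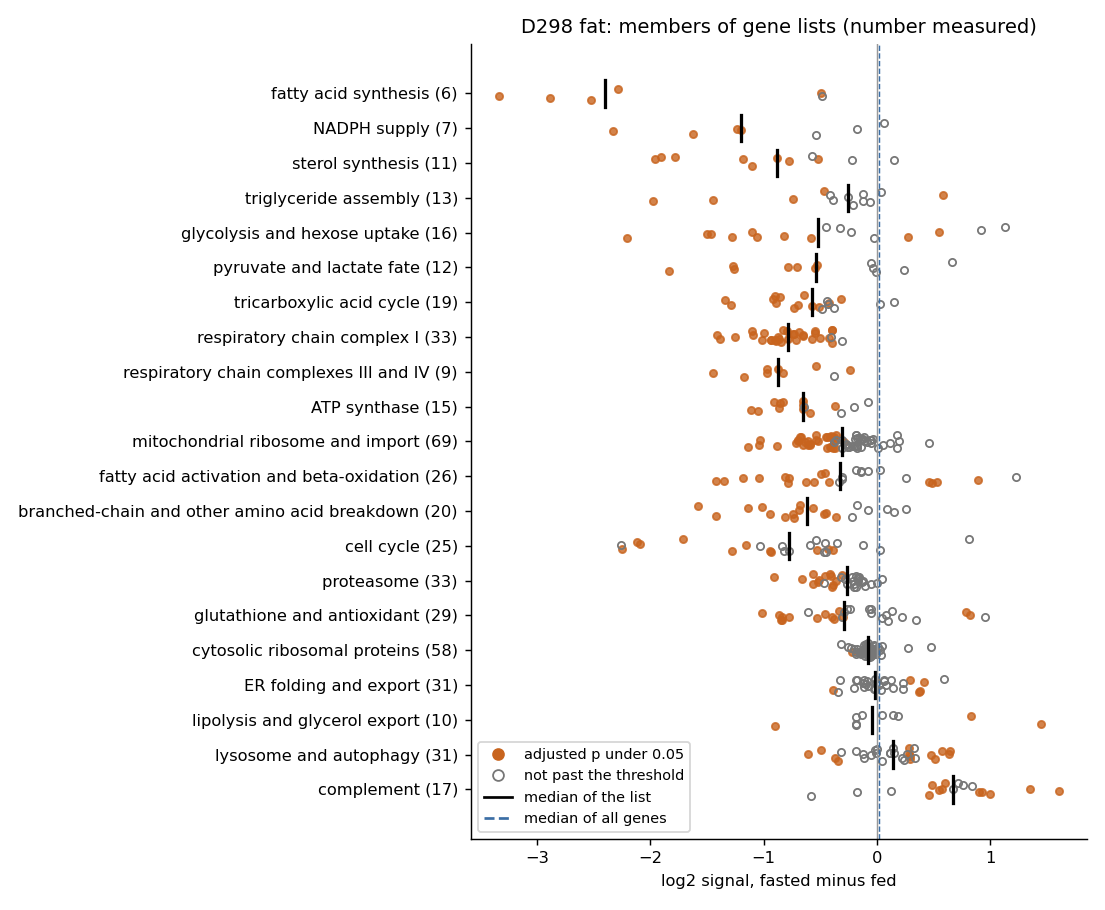
Log2 difference of fasted minus fed D298 fat for the measured members of 21 gene lists, 1 point per gene, with filled points past an adjusted p of 0.05, black bars at the median of each list and a dashed line at the median of all 6765 genes (0.018). Fatty acid synthesis has the lowest median (-2.40) and complement the highest (0.67) of the lists drawn.

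No change in the transcripts of the lipases that release the store passed the test. LIPE, hormone-sensitive lipase, had signals of 6478, 8021 and 10067 in fed and 7539, 8411 and 12096 in fasted gilts, and PNPLA2, adipose triglyceride lipase, 8556, 10343 and 14508 against 6284, 10157 and 11051. In both the groups overlapped almost wholly, with differences of 0.15 (SE 0.11) and -0.19 (SE 0.14). Of 10 measured genes of lipolysis and glycerol export 2 were higher and 1 lower. AQP3, a channel for water and glycerol, rose from 1377, 2831 and 5354 to 3014, 8116 and 10873. Its lowest fasted array was replicate 5, and the other fasted arrays lay above every fed one. ADRB1, the beta-1 adrenergic receptor, rose by 0.83 at dim signals, and did not pass without the 2 arrays with hepatocyte transcripts (adjusted p = 0.106). GK, glycerol kinase, fell by 0.90, and HILPDA, a droplet protein that restrains adipose triglyceride lipase, rose by 0.61.

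For fatty acid uptake from blood lipoproteins, LPL, lipoprotein lipase, fell by 0.33 (SE 0.098, adjusted p = 0.0298) at its brightest probe set and differed by -1.04 at the other. ANGPTL4, which inactivates it, rose from 471, 1466 and 3271 to 2238, 3001 and 4121 (log2 1.17, SE 0.36, adjusted p = 0.0342). GPIHBP1, which carries the lipase across the capillary wall, rose by 1.05. LPL differed by -0.30 and ANGPTL4 by 1.03 without the 2 arrays with hepatocyte transcripts, and neither passed (0.137 and 0.104). FABP5, a fatty acid binding protein, fell by 0.33, whereas FABP4, the adipocyte form, differed by -0.11 (SE 0.11) and did not pass.

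Of 12 measured adipokines only CFD, the adipocyte protease adipsin, passed, with a rise of 0.58. Adiponectin (ADIPOQ) differed by 0.016 (SE 0.14), at 24250 to 29426 in fed and 21044 to 30764 in fasted gilts. Leptin (LEP) was at 312, 602 and 1307 in fed and 101, 245 and 1459 in fasted gilts. The fasted median was below the fed one, but the highest array of the 12 was a fasted one, and the difference of -1.09 (SE 0.50) did not pass (adjusted p = 0.177). Among 18 adipogenic transcription factors and cofactors 4 were higher and 1 lower, and 2 and 0 without the 2 arrays with hepatocyte transcripts. KLF11, a zinc finger factor, rose from 104, 262 and 828 to 762, 895 and 1292 (log2 1.75, SE 0.31, adjusted p = 0.000695). Only fed replicate 1, at 828, lay within the fasted range. GATA3, which restrains fat cell formation, rose by 0.90, the corepressor NCOR1 by 0.41 and the coactivator NCOA1 by 0.33. PPARG, the master factor of adipocytes, fell by 0.39 (SE 0.11, adjusted p = 0.0239), and neither it nor GATA3 passed without the 2 arrays with hepatocyte transcripts (0.0876 and 0.0805).

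Targets of the FOXO factors and of glucocorticoids were mixed, with 5 of 23 higher (2 without the 2 arrays with hepatocyte transcripts) and 1 lower. GADD45B, a stress-response protein, rose from 107, 225 and 429 to 466, 514 and 783 without overlap. HSD11B1, which regenerates active cortisol inside the cell, rose by 0.98, the cell cycle inhibitor CDKN1B by 0.46 and PIK3IP1, which restrains PI3 kinase, by 0.39. ANGPTL4 is the fifth that rose. CDKN1A, another cell cycle inhibitor, fell by 1.05. In the hormone receptors, ADIPOR2 and ADIPOR1, which bind adiponectin, fell by 0.74 and 0.52, and IGF1R, the receptor of insulin-like growth factor 1, rose by 0.57. GRB10, an adaptor that damps insulin receptor signalling, rose by 0.80, and IGFBP6 fell by 0.78. Of the clock genes ARNTL, its positive arm, rose by 0.91 and BHLHE40, a repressor, by 0.58, and DBP, an output factor, fell by 0.79. The other 4 of the 7 measured clock genes did not pass.

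Steroid and xenobiotic genes held some of the largest changes in both directions, with 4 of 23 higher and 5 lower. CYP2B22, a cytochrome P450, had the largest rise by the naming rule, from 238, 324 and 1544 in fed to 672, 1738 and 2764 in fasted gilts. The highest fed array was replicate 1, and the other 5 fed arrays were at or below 557. SULT1A3, a sulfotransferase, rose from 2515, 3175 and 5369 to 7482, 9203 and 11224 without overlap (log2 1.50, SE 0.15, adjusted p = 1.46e-06). HSD3B1, which oxidises steroids, rose by 1.26. STAR, which carries cholesterol into the mitochondrion, fell from 274, 729 and 1601 to 79, 124 and 199. EPHX1, an epoxide hydrolase, fell by 1.01 and ALDH1A1, a retinaldehyde dehydrogenase, fell by 0.93. POR, which hands electrons to cytochromes P450, and the dehydrogenase HSD17B8 fell by 0.74 and 0.69.

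In the lists of cell division, proteasome, chaperone and redox defence genes more were called lower than higher, and most members did not pass. In the cell cycle list 11 of 25 measured genes were lower and 0 higher, at low levels: only 7 of the 25 were above the median signal of the array. TOP2A, which untangles replicated DNA, had signals of 112, 373 and 529 in fed and 19.8, 88.8 and 124 in fasted gilts, and CCNB1, cyclin B1, 87.9 to 311 against 4.25 to 70.9. The count was 14 without fed replicate 1 and 4 without the 2 arrays with hepatocyte transcripts. The proteasome had 13 of 33 lower and 0 higher, with PSMB7 (-0.66), PSMA3 (-0.56), PSMB5 (-0.56) and PSMD8 (-0.51) as examples, and 18 and 7 under the same omissions. Heat shock proteins and chaperones had 8 of 25 lower and 0 higher, led in size by the small heat shock protein HSPB1 (-1.03), and the mitochondrial chaperonins HSPE1 and HSPD1 fell by 0.82 and 0.61.

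In glutathione and antioxidant metabolism 12 of 29 were lower and 2 higher. Without the 2 arrays with hepatocyte transcripts 7 were lower, as were 5 of the 25 heat shock proteins and chaperones. The peroxiredoxins PRDX1 and PRDX2 fell by 1.02 and 0.86, and GPX4, which reduces lipid peroxides, fell by 0.84. SOD2, the mitochondrial superoxide dismutase, rose without overlap from 3257 to 5355 in fed to 6510 to 9970 in fasted gilts, and GPX3, the secreted peroxidase, rose by 0.83. Lysosome and autophagy genes were higher in 9 of 31 and lower in 4, and in 6 and 2 without these arrays. With all arrays 41.9% of them were called, against 19.2% of all genes. Proteases and hydrolases of the lysosome rose, CTSK by 0.58, CTSZ by 0.48 and GLB1 by 0.64, while the autophagy genes ATG7 and BECN1 fell by 0.60 and 0.34 and the proton pump subunits ATP6V1A and ATP6V0D1 by 0.49 and 0.37. In the endoplasmic reticulum list 4 of 31 were higher, the chaperone CANX (0.38) and the disulfide isomerases PDIA6 (0.30) and PDIA4 (0.42) with the transport protein TMED2 (0.38), and 1 was lower, the signal peptidase subunit SPCS1 (-0.39). These calls are 16.1% of the list, below the 19.2% of all genes, and 2 higher and 1 lower passed without the same arrays.

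The matrix list was divided. LUM, the collagen-binding proteoglycan lumican, fell from 8140 to 11502 in fed to 3472 to 5883 in fasted gilts, and COL15A1, a basement membrane collagen, fell from 6997 to 9655 to 3497 to 5562, both without overlap. COL5A1 and COL5A3, which help start collagen fibrils, fell by 1.05 and 1.36, although the other probe sets of COL5A1 ran from -1.62 to 0.28. THBS1, thrombospondin 1, rose from 988, 1325 and 3652 to 2044, 3841 and 5223, and MMP14, a membrane-bound matrix protease, rose by 0.80 without overlap. Among 29 measured genes of collagen processing and other matrix 6 were higher and 5 lower (LUM, BMP1, NID2, SERPINH1 and PLOD1), and among 11 collagens 0 were higher and 3 lower. CILP and PAMR1, secreted proteins of connective tissue, were among the 12 largest rises, from fed medians of 1527 and 267 to fasted medians of 5233 and 797. APOD, the lipid carrier apolipoprotein D, rose from 2798, 3969 and 13948 to 10824, 12501 and 19080. In each of these 3 rises fed replicate 1 lay inside the fasted range, and for APOD and PAMR1 the other 5 fed arrays lay below every fasted one.

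Complement, the serum cascade that tags microbes and debris, had the highest median of the pathway lists, 0.67, with 10 of 17 higher and 0 lower against 7.46% higher over all genes. C1R and C1S, the proteases that start the classical route, both rose. C1R had signals of 2186, 3568 and 6612 in fed and 5495, 6541 and 12567 in fasted gilts, with a log2 difference of 0.998 (SE 0.18, adjusted p = 0.000885). C3, the central component, went from 158, 210 and 826 to 315, 905 and 3086. The spread of C3 within each group was wide, and its adjusted p was 0.0328. It did not pass when fed replicate 2, 3, 5 or 6 or fasted replicate 2 or 5 was left out (adjusted p = 0.0707 to 0.108). Inhibitors rose with the proteases: SERPING1, which blocks C1R and C1S, by 0.46, and the membrane regulators CD55 and CD46 by 0.91 and 0.49. CFD and, chosen after their values were seen, C2, C7 and CD59 complete the 10. Without the 2 arrays with hepatocyte transcripts 6 of the 17 passed, and SERPING1 (0.0657), C2 (0.0707), C7 (0.09) and CD59 (0.123) did not. Markers of macrophages, which make C1q, moved the same way: all 9 had a positive difference and none passed, and their summed signal was 4747 to 8825 in fed and 7578 to 15236 in fasted gilts. C1QA (0.67) and C1QC (0.72) are members of both lists, so the lists are not independent of each other. The part of macrophages in the complement values was not tested.

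Acute phase and inflammation genes were higher in 4 of 23 and lower in 0, a share called of 17.4% against 19.2% of all genes, and higher in 2 without the 2 arrays with hepatocyte transcripts. ITIH1 and ITIH3, heavy chains that stabilise hyaluronan, rose without overlap, ITIH1 from 144 to 292 in fed to 540 to 1032 in fasted gilts and ITIH3 from 1360 to 2441 to 3003 to 5232. Both differences were as large without the 2 arrays with hepatocyte transcripts (1.57 and 1.25). ORM1 and SAA2, liver acute phase proteins in origin, rose by 0.38 and 0.38. PGLYRP2, an amidase that cleaves bacterial cell wall fragments, fell from 430, 1093 and 2147 to 93.8, 119 and 141, with the fasted arrays close together. DPP4, a membrane peptidase, rose from 70.8, 95.1 and 248 to 179, 377 and 634. The interferon list had 2 of 19 higher, GBP1 (0.57) and GBP2 (0.63), and the class II list 1 higher, SLA-DQB1 (0.51), and 1 lower, SLA-DMA (-0.70), of 10. The shares called were 10.5% and 20%, near or below the 19.2% of all genes. Of the endothelial markers 9 of 10 were positive and 2 passed, TEK (0.88) and ESAM (0.51). Of the 9 lymphocyte markers, all below the median signal of the array, 8 were positive and 2 passed, CD3D (0.97) and CD8A (0.65), neither of them without fed replicate 1. The shares called were 20% of the endothelial and 22.2% of the lymphocyte markers, near that of all genes. S100A9, a neutrophil protein, fell by 1.12.

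Of the remaining genes with large changes, ECHDC1, which removes a faulty product of acetyl-CoA carboxylase, fell from 1722, 5711 and 7222 to 834, 954 and 1156. CEACAM16 fell from a fed median of 386 to a fasted median of 116. GPRC5A, an orphan receptor, rose from a fed median of 258 to 492, but its other probe sets differed by 0.49 and 0.65 and it did not pass without the 2 arrays with hepatocyte transcripts (0.0692).

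The position of fed replicate 1 varied between gene groups. Among the 1440 genes called without this array, it lay inside the range of the other 5 fed arrays in 426 (29.6%) and inside or past the range of the fasted arrays in 854 (59.3%). By list, with 0 at the mean of the other fed arrays and 1 at the fasted mean, its median position was 0.21 for acute phase and inflammation genes and 0.33 for the collagens, against 0.76 for fatty acid synthesis, 0.81 for complement and sterol synthesis, and 1.04 for the proteasome. It stood at 0.643 over probe sets that rise and at 0.587 over those that fall. Muscle markers were also high in this array, and their part in its position was not tested.

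The response was next set beside that of fat from N298 gilts, fasted and fed in the same way. No probe set passed the test of the difference between the genotypes' responses in limma (0.0%), and 1368 had an unadjusted p under 0.05. In N298 fat 3718 probe sets were called (15.5%). Of these calls 1985 were shared, which is 65.4% of the D298 calls and 53.4% of the N298 calls, and none of the shared ones had opposite signs. Among the genes of fat synthesis, FASN differed by -3.34 in D298 and -3.42 in N298 fat (SE 0.27), and SLC25A1 by -2.89 and -2.89. The creatine kinase CKB differed by -3.17 and -3.70.

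**Figure D4:**
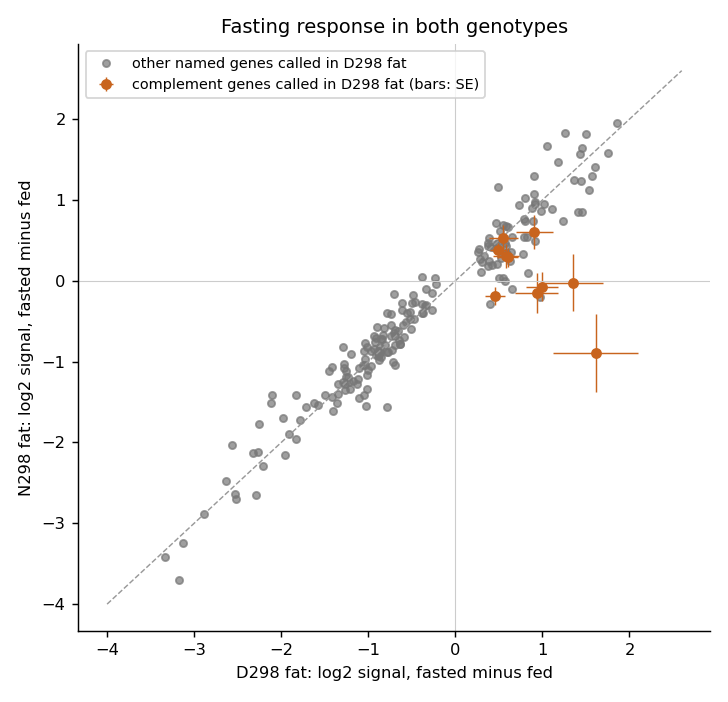
Log2 difference of fasted minus fed in D298 fat (horizontal) and N298 fat (vertical) for the named genes called in D298 fat, with the dashed line marking equal responses. The 10 complement genes called in D298 fat are drawn with their SE, and several lie below the line, C3 at 1.61 and -0.89 the farthest.

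Complement genes had the most unequal pair of medians among the pathway lists. The median of the 17 genes was 0.67 in D298 fat and -0.14 in N298 fat, where 2 of the 17 were higher against 9.67% of all genes, and 0 differences between the genotypes passed. C1R differed by 0.998 in D298 and -0.072 in N298 fat, a difference in response of 1.07 (SE 0.26, adjusted p = 0.805), and SERPING1 by 0.46 and -0.19. Fed N298 signals of C1R were 3690 to 5846, and fasted N298 signals were 2890 to 6205. The fed D298 signals were 2186 to 4119 without replicate 1, which was at 6612. For C3 the N298 medians were 958 in fed and 378 in fasted gilts, the reverse order of the D298 medians. Markers of some other cell types took the same course with wider gaps between the medians. These were 0.61 in D298 and -0.34 in N298 fat for macrophages, 0.82 and -0.52 for skeletal muscle and 0.34 and -0.9997 for hepatocytes, which make most serum complement. Not all cell types did: the medians were 0.39 and 0.47 for endothelial, 0.45 and 0.33 for smooth muscle and pericyte, and -0.047 and 0.13 for adipocyte markers. None of the macrophage, skeletal muscle or hepatocyte markers passed in D298 fat, and the macrophage markers C1QA and C1QC are also members of the complement list. The complement median in D298 fat was 0.59 without the 2 D298 arrays with hepatocyte transcripts, and the part of the other markers was not tested. In N298 fat 2 arrays had ALB signals above 1000. These N298 arrays were kept in that alternative, so the N298 medians were not checked in this way. ARPC1B, an actin-branching subunit, FGGY, a sugar kinase, and LOC102163508 had the next smallest p of the difference among genes called in D298 fat, each with an adjusted p of 0.805.

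**Figure D5:**
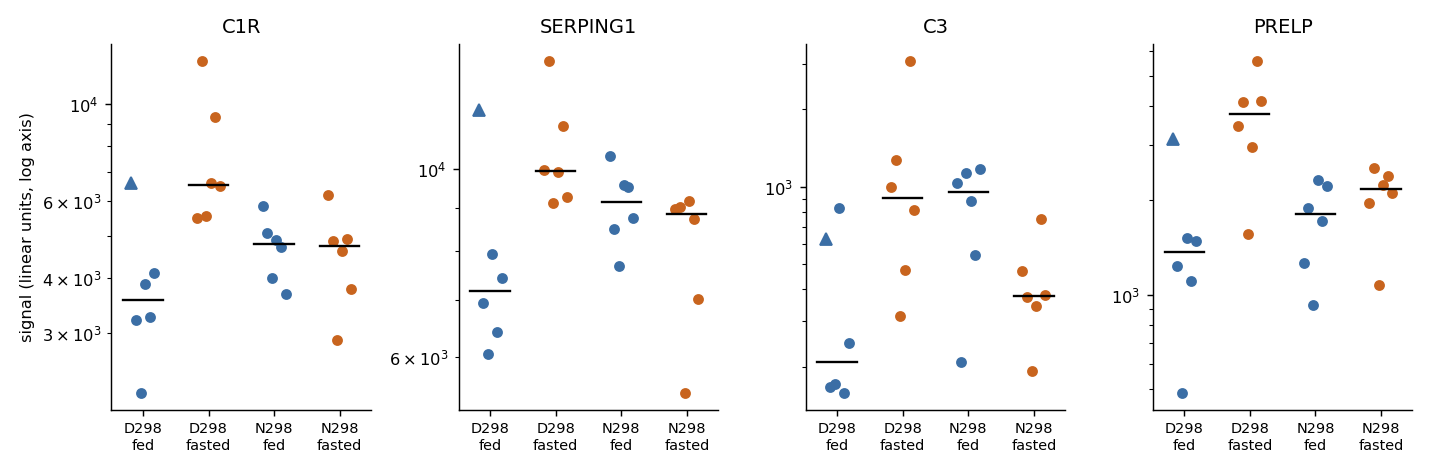
Signal of C1R, SERPING1, C3 and PRELP in each of the 24 fat arrays (log axis, linear units) by genotype and feeding, with a line at each group's median and a triangle for fed D298 replicate 1. In D298 fat the fasted medians are above the fed ones in all 4 genes, and in N298 fat the medians are closer for C1R, SERPING1 and PRELP and reversed for C3.

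Without fed D298 replicate 1, 5 probe sets passed the test of the difference between genotypes, all with the larger value in D298 fat. They belong to PRELP, FBLN1, QSOX1 and AEBP1, secreted proteins of the matrix or its making, and 1 has no symbol. These genes were chosen after their values were seen. PRELP had D298 signals of 485, 1364 and 3133 in fed and 1562, 3791 and 5593 in fasted gilts, and the highest fed array was replicate 1. N298 signals were 926, 1805 and 2329 in fed and 1074, 2178 and 2531 in fasted gilts. The difference in response was 1.40 without fed replicate 1 (SE 0.20, adjusted p = 0.0212) and 1.12 with it (adjusted p = 0.805). For FBLN1 it was 1.27, for QSOX1 1.03 and for AEBP1 2.01 without the array, each again at an adjusted p of 0.805 with all arrays. FBLN1 did not rise by the test in D298 fat (0.30, adjusted p = 0.276 with all arrays) and fell in N298 fat (-0.81, adjusted p = 0.00161). QSOX1 and AEBP1 rose in D298 fat (0.63 and 1.28) and did not pass in N298 fat (-0.19 and -0.25). The probe set of AEBP1 is not the brightest of its gene.

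Against the liver of D298 gilts the fat response differed at 1425 probe sets (5.94%), 529 with the larger value in fat (2.20%) and 896 with the larger value in liver (3.73%). Among genes 728 differed (10.8%). The citrate carrier SLC25A1 separated the tissues most among the 6 genes of fatty acid synthesis, with -2.89 in fat and 0.47 in liver (difference -3.36, adjusted p = 1.7e-13). In D298 liver 615 probe sets were called (2.56%). FASN passed in both tissues, with -3.34 in fat and -3.08 in liver, and the difference of -0.26 did not pass (adjusted p = 0.794). CYP2B22 moved in opposite directions, with 1.85 in fat and -2.55 in liver. PGLYRP2 fell in fat and differed by 0.44 in liver (difference -3.56), and ACSL1 fell in fat and differed by 0.18 in liver (difference -1.60).

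The mitochondrial genes responded differently in the tissues. Of the 33 complex I genes 25 differed from liver, where their median was -0.045 against -0.79 in fat, and of the 19 tricarboxylic acid cycle genes 12 differed. ECH1, a peroxisomal and mitochondrial isomerase, differed by -0.49 in fat and 1.05 in liver, and the test of the difference gave -1.54 (adjusted p = 2.7e-09). The sterol genes leaned the other way, with a median of -2.18 in liver and -0.88 in fat, and 6 of 11 differed. CYP51 differed by -1.18 in fat and -2.63 in liver (adjusted p of the difference = 0.000138). Of 17 complement genes 7 differed from liver, C1R among them (0.998 in fat, -0.012 in liver). Larger in fat by the naming rule were also STEAP4, a metalloreductase (1.78), LIMS2, an adhesion adaptor (1.48), NDRG2 (1.28) and CDC5L, a splicing factor (0.72), and lower in fat LOC102163508 (-1.73).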

How the data were processed

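Total RNA of fat and liver was labelled with biotin and hybridised to 48 arrays, 1 per tissue of each of 24 gilts. Affy and MAS5 are the tools given by the submitters' processing notes, without versions. The deposited intensities are linear, and the authors had brought them to a common target: each array has a mean of 500 once the top and bottom 2% of values are dropped. Log2 was taken with nothing added, and 124 control probe sets were left out. Of 23999 probe sets 10069 had 1 gene symbol, 198 several and 13732 none.

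Groups came from the sample titles. The 24 fat arrays were fitted together in limma (3.58.1, under R 4.3.3, with lmFit and a trended eBayes). The model held 4 groups, and the number in the title entered as a block with 6 levels, since the series describes a block design, although the labels do not say that this number marks the block. For the comparison with liver all 48 arrays were used, and the gilt was a random effect. Tests were 2-sided, with Benjamini-Hochberg adjustment over all probe sets and calls at an adjusted p under 0.05. SE is that of the log2 difference. Array measures were compared by an exact permutation test over every split of 6 against 6 (SciPy 1.17.1). The models were tested on simulated data.

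The groups, the gene lists and the tests were chosen with earlier results of these data known, so the lists are no independent support. Genes are named by a rule: the 12 largest rises and 12 largest falls that also pass without fed replicate 1 and are brighter than the median probe set, by p up to 4 members of each list that move its main way and 2 that move against it, 5 per direction for differences between groups, and some fixed by name. Genes named to complete a count of 5 or fewer, PRELP, FBLN1, QSOX1, AEBP1, SLC2A4, PFKM, ENO3, NDUFS7, C2, C7 and CD59, and uncalled regulators were chosen after their values were seen. Alternatives changed the block, the arrays, the scaling, a floor of 32 added before log2, the brightness filter, the trend and array weights.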

Additional observations from a re-analysis of the deposited data

Results flagged for a closer look

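In groups of 6, a value was taken up here when its gap to the nearest other array, over the range of its group, exceeded the 95% critical value of Dixon's test. Of 442 groups of 6 arrays 45 met this, and chance flags about 1 in 20 groups. Fed replicate 1 accounted for 18 of them, although its position between the fed and fasted arrays, tested by the same rule, did not meet it. It was the lowest fed array for ACACA (99.9), ACSS2 (1426), ATP6V1A (405), BCKDHB (1471), CYP51 (1127), ECHDC1 (1722), ENO1 (5116), FASN (14224), FDPS (978), HK1 (2018), ME1 (5898), MPC2 (8405), PGD (3209), SLC25A1 (5623), SLC2A5 (183), TALDO1 (9363) and TKT (9301), and the highest for QSOX1 (1060). Among the other fed arrays, replicate 4 was highest for ALB (7463) and EEF1D (9470), replicate 6 lowest for PIK3IP1 (463) and replicate 3 lowest for SCD5 (55.2).

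In the fasted group, replicate 1 was the highest array for BMP1 (679), DGAT1 (1225), ME1 (4795) and TKT (9265) and the lowest for CCNB1 (4.25), SCD5 (147) and SREBF1 (23.0). Fasted replicate 5 was the highest for ALB (8392), EIF2B2 (1513) and IGFBP6 (3137) and the lowest for AQP3 (3014), MDH1 (6475), RPL12 (14631) and SLC2A1 (153). The lowest array was replicate 2 for FGGY (423) and LIMS2 (1630), replicate 3 for HSD11B1 (1851) and HSPB1 (2009), replicate 4 for ACSL5 (278) and PDIA6 (2665), and replicate 6 for GRB10 (1118), MC4R (1.57) and PCCA (849).

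In the test of the fat response against the D298 liver response, the log2 difference between the tissues was 4.40 for CYP2B22, 1.78 for STEAP4, 1.48 for LIMS2, 1.28 for NDRG2 and 0.72 for CDC5L. It was -3.56 for PGLYRP2, -3.36 for SLC25A1, -1.73 for LOC102163508, -1.60 for ACSL1 and -1.54 for ECH1. No test of a cause was made for any of these values.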

How the results depend on the processing

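No named gene changed sign in an alternative when it passed in the main fit or in that alternative. Sign changes of genes that passed in neither were not counted. Of 202 called genes among the 210 that the rule names, 139 kept their call under all of them and 63 lost it under at least 1. C3 lost its call in 13 alternatives, and its adjusted p ran from 0.0119 to 0.172 over them. The count of 3034 called probe sets in D298 fat was 1582 in a fit of the 12 D298 fat arrays alone with the replicate block (2231 without it) and 1655 without fed replicate 4 and fasted replicate 5. It ran from 2177 (without fed replicate 3) to 3487 (without fasted replicate 1) when 1 D298 array was left out, and from 1825 (without number 3) to 3641 (without number 1) when a replicate number was left out, with 1940 without number 5. With no replicate block it was 2744 and with a random one 2930. Same-numbered arrays share a level of the block in the main fit, but were not otherwise taken as pairs. Their residuals in fed and fasted gilts correlated at -0.073 to 0.107, and 1 of 6 pairs correlated best with its own number. The split of calls depended on scaling: 51.9% were higher as deposited, 45.1% with quantile normalization and 31.1% with arrays centred on their median, where the median of all probe sets moved from 0.079 to -0.021. The skeletal muscle marker mean as a covariate, added after the data were seen, gave 2933. For the difference from N298 fat the count of 0 became 5 without fed replicate 1 and ran from 0 to 4 when a replicate number was left out (4 without number 1). It was 0 in the other alternatives counted, which did not include leaving out any other single D298 fat array. For the difference from liver the count of 1425 was 1788 without fed replicate 1 and ran from 829 (without number 4) to 1596 (without number 1). Of its calls 37.1% were larger in fat, against 21.7% with centring. The number of arrays and low signal limit the dimmest genes, SREBF1, TOP2A, CCNB1 and MC4R among them.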

Other observations

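In gene groups outside the main account the share of measured members called in D298 fat was at most 21.4%, near or below the 19.2% of all genes. Of 10 measured genes of insulin signalling 1 was higher, the adaptor GRB10, and 1 lower, CAV1, which shapes caveolae (-0.23). Of 32 translation factors 2 were higher, EIF3E (0.28) and EIF2B2 (0.26), and 4 lower, EIF4A1 (-0.47), EEF1G (-0.38), EEF1D (-0.27) and EIF1AX (-0.27). Among 10 genes of amino acid transport and the ATF4 response only ASNS, asparagine synthetase, was lower (-0.48), and among 8 ubiquitin enzymes only the ligase WWP1 was higher (0.78). In hypoxia and angiogenesis 2 of 14 were higher, the oxygen sensor EGLN1 (0.31) and TEK, and 1 was lower, SLC2A1. Of the 14 genes of the insulin-like growth factor axis 1 was higher, IGF1R, and 1 lower, IGFBP6. The calls of ASNS, CAV1, EEF1D, EGLN1, EIF1AX, EIF2B2, EIF3E, EIF4A1 and WWP1 were lost without the 2 arrays with hepatocyte transcripts (adjusted p = 0.0605 to 0.241), and EIF2B2 did not pass without fed replicate 1 either. In these groups the median log2 difference was between -0.061 and 0.21.

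Markers of other cell types gave further values. Of 7 smooth muscle and pericyte markers 2 were higher, MYL9 (0.59) and PDGFRB (0.45), and 1 lower, RGS5 (-0.61), of which PDGFRB and RGS5 did not pass without the same 2 arrays (adjusted p = 0.0523 and 0.109). Of 6 fibroblast markers 1 was lower, LUM. No marker of erythroid cells (3 measured), keratinocytes (3), gland epithelium (6), mast cells (2) or neural cells (2) passed in either direction. In N298 fat ALB ran from 146 to 9507, and 2 of the 12 arrays were above 1000.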
